A study of Mus musculus with 2 samples.

Results

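Collagens and laminins, the main structural proteins of extracellular matrix and basement membrane, were followed at the mRNA level through every cell class of the adult mouse striatum. The genes were taken by name alone, as each row of the deposited matrices whose symbol was Col, a number, a and a number, or Lam, the letter a, b or c, and a digit. This gave 55 of the 32285 listed genes, 44 collagen chains and 11 laminin chains. All 55 had at least 1 unique molecular identifier (UMI, a tag that marks 1 captured mRNA molecule). In at least 1 named cell class 44 of them reached 10 CPM (the UMIs of the gene, summed over the cells of that class, per 1000000 UMIs of the class), and 11 did not.

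Collagens are trimers of alpha chains wound into a triple helix. Fibrillar collagens (types I, III, V, XI and XXVII) build fibres, type IV forms the sheet-like network of basement membranes, type VI forms beaded filaments, and others sit on fibre surfaces (the FACIT group), span the plasma membrane or release fragments such as endostatin. Laminins are cross-shaped trimers of an alpha, a beta and a gamma chain that polymerize into the cell-facing layer of a basement membrane and bind integrins and dystroglycan through the alpha chain. In the brain, a vascular basement membrane lies between endothelial cells, pericytes or smooth muscle cells, and the end feet of astrocytes, and a further one covers the surface of the brain and the perivascular spaces. Fibroblasts of the meninges and of larger vessels are the known source of most fibrillar collagen there.

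The 2 libraries were single-cell suspensions of striatum, replicate 1 and replicate 2, from untreated male mice aged 8 to 10 weeks per the labels, which name the strain C57/Bl6J. The tissue was digested with pronase in the presence of a transcription blocker, filtered and cleared of debris, and cells were captured with the 10x Genomics 3′ assay. There was 1 group and no treatment, allele or transgene, so all comparisons were between cell classes within the same 2 libraries. The labels do not tie a library to separate animals. The p-values rest on how far differences between classes varied between these 2 libraries, a spread that may be technical. Pairs of values below are given in the order library 1, library 2.

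The type IV genes lie head to head on the chromosome, which is shown here because their levels are compared pair by pair below. In GENCODE release 21 on GRCm38, *Col4a1* (ENSMUSG00000031502) lies at chr8:11198423-11312826 on the minus strand and *Col4a2* (ENSMUSG00000031503) at chr8:11312805-11449287 on the plus strand, so that their starts overlap. *Col4a4* and *Col4a3* are arranged the same way on chromosome 1 with starts 72 bases apart, and *Col4a6* and *Col4a5* on the X chromosome with starts 1309 bases apart. The windows from 250 bases before to 50 after the start, from RefSeq on GRCm38.p6, are given 5′ to 3′ for the ubiquitous vessel pair (*Col4a1*, chr8:11312777-11313076, minus strand; *Col4a2*, chr8:11312555-11312854, plus strand) and for the pair that peaked in fibroblast-like cells (*Col4a5*, chrX:141475169-141475468, plus strand; *Col4a6*, chrX:141474027-141474326, minus strand). Capitals mark 3 motifs on either strand, the TATA box (TATAAA), the box named for its letters CCAAT, and the GC box (GGGCGG).
Col4a1: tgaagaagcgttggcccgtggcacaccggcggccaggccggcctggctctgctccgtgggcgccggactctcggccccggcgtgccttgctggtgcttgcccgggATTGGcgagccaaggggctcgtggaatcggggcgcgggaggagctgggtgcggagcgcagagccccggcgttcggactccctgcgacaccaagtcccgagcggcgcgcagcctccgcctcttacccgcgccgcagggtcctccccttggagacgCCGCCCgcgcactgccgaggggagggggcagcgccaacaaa
Col4a2: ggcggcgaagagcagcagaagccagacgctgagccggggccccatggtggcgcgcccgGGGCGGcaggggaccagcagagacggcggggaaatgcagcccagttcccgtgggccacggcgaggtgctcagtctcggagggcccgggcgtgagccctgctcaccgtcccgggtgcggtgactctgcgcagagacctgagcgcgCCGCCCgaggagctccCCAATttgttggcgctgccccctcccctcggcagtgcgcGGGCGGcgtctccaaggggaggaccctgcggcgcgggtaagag
Col4a5: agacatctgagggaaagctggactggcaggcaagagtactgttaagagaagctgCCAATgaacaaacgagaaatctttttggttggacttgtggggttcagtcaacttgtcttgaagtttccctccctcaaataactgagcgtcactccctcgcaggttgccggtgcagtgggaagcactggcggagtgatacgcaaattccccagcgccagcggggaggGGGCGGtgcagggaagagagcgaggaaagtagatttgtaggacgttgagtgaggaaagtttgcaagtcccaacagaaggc
Col4a6: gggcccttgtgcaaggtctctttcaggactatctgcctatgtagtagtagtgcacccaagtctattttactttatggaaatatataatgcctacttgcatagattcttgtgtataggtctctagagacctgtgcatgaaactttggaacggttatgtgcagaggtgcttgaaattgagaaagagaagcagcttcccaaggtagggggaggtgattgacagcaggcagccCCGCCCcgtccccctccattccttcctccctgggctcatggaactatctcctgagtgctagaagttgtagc
The *Col4a1* and *Col4a2* windows were 74% and 73.7% G or C and held no TATAAA, with 1 CCAAT each and 1 and 3 copies of GGGCGG. The *Col4a5* and *Col4a6* windows were 52.7% and 48.3% G or C, also without TATAAA. Across 32851 promoter windows of the genome, 13.6% held TATAAA, 37.4% CCAAT and 35.7% GGGCGG, and among the 44 windows of the 40 collagen and laminin genes that had one these shares were 11.4%, 31.8% and 59.1%. A match of letters is a description of the window and not evidence of binding.

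For the fibrillar genes the windows of *Col1a2* (chr6:4505368-4505667, plus strand) and *Col3a1* (chr1:45311288-45311587, plus strand) are shown because both transcripts were found in pericyte-like and smooth muscle-like cells as well as in fibroblast-like cells. *Col1a2* was 61% G or C with 2 copies each of CCAAT and GGGCGG, and *Col3a1* was 37.7% G or C with 1 TATAAA and neither of the other motifs.
Col1a2: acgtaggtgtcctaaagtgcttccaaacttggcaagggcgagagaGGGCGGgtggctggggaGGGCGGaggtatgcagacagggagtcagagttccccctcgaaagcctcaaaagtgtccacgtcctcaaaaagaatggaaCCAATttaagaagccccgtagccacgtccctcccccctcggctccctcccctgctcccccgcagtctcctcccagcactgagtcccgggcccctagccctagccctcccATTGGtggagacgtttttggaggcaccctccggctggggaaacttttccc
Col3a1: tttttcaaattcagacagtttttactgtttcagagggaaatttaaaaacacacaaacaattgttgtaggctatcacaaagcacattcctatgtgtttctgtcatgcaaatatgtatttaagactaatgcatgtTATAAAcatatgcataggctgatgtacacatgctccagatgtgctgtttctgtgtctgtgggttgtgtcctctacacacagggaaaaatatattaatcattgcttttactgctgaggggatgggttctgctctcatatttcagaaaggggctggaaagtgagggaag

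The libraries held 6978 and 5437 barcodes with 44597660 and 37982720 UMIs, of which 6783 and 5212 cells were analysed, and 9 barcodes occurred in both. Although the labels describe the cells as glia enriched, marker genes named 9 broad classes for testing, including 1401 endothelial-like, 550 mural-like, 364 neuron-like and 1661 neuroblast-like cells beside astrocytes, oligodendrocytes, their precursors, microglia and border macrophages. A further 97 erythroid-like cells, 86 and 11 per library, were too few in library 2 for the tests. The neuroblast-like class had the cell-cycle genes *Top2a*, *Mki67* and *Cenpf* among its leading genes. The finer clustering named 339 and 151 cycling progenitor-like and 83 and 63 ependymal-like cells, which the broad classes did not separate. Mural-like cells also carried endothelial marker genes (5028 and 5834 CPM summed over the markers, against 22876 and 26106 in endothelial-like cells), whereas endothelial-like cells carried 522 and 739 CPM of mural markers. The part of this carry-over in the results was not tested. Each count of collagen and laminin genes called between classes was also run without vessel cells that carried markers of the other vessel class. The counts for lists of other matrix genes were not. Since a CPM is relative to all UMIs of a class, less of a transcript per cell and more of all other transcripts cannot be told apart.

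The 55 genes took 42068 UMIs, 0.0534% of those of the analysed cells. Vessel cells held more of them than their share of the cells. Mural-like cells, the contractile and supporting cells around vessels, were 4.56% and 4.62% of cells and held 28.3% and 30.3% of collagen UMIs and 39.6% and 40.5% of laminin UMIs. Endothelial-like cells, which line the vessels, were 11.8% and 11.5% of cells and held 24.8% and 20.1% of collagen and 22.9% and 22.1% of laminin UMIs. Within the mural-like class, 49 fibroblast-like cells, 0.442% and 0.365% of all cells, held 7.93% and 7.39% of collagen UMIs at 7785 and 8881 CPM. Oligodendrocyte-like cells held 18.0% and 19.7% of collagen UMIs, with the most UMIs of any class in total, 14620134 and 15035297.

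**Figure D1:**
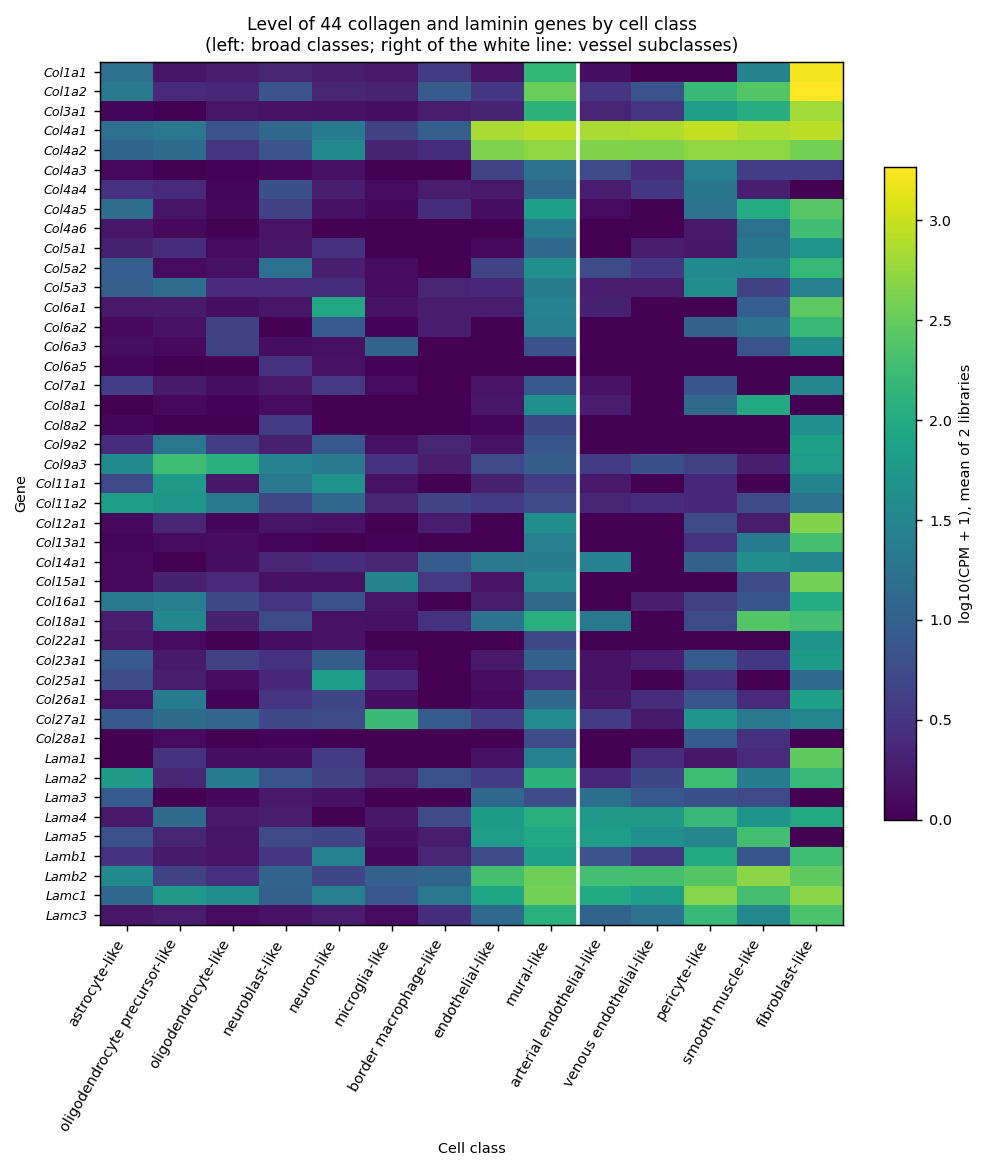
Levels of the 44 collagen and laminin genes that reached 10 CPM, as log10 of CPM plus 1, mean of the 2 libraries, in 9 broad cell classes and 5 vessel subclasses, of which the arterial-like one was drawn without a separate capillary-like class. Brighter colours mark higher levels. *Col4a1* and *Col4a2* are bright in all vessel columns. *Col27a1* stands out in microglia-like cells, *Col9a3* in oligodendrocyte precursors and *Col25a1* and *Col6a1* in neuron-like cells.

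*Col4a1* was the most abundant of the 55 transcripts in endothelial-like and in mural-like cells, and the 6 type IV chains fell into 3 patterns. *Col4a1* and *Col4a2*, which form the common alpha1-alpha1-alpha2 trimer, were high in every vessel class. *Col4a1* stood at 726 and 681 CPM in endothelial-like cells and at 851 and 867 CPM in mural-like cells, with 944 and 896 in pericyte-like, 754 and 774 in smooth muscle-like and 689 and 992 CPM in fibroblast-like cells. Outside the vessel it was 27.0 and 14.3 CPM in neuron-like, 16.2 and 21.3 in oligodendrocyte precursor-like and 4.08 and 2.37 CPM in microglia-like cells. *Col4a2* followed at 456 and 407 CPM in endothelial-like, 524 and 528 in mural-like, 507 and 552 in pericyte-like and 543 and 499 CPM in smooth muscle-like cells. In fibroblast-like cells *Col4a2* was 368 and 390.2 CPM. The levels of each gene in these vessel classes differed by less than 2-fold, and those of endothelial-like cells lay under those of mural-like cells in both libraries.

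*Col4a3* and *Col4a4*, chains of the alpha3-alpha4-alpha5 trimer known from kidney glomeruli, were low and peaked in pericyte-like cells, *Col4a3* at 13.6 and 37.0 CPM and *Col4a4* at 14.8 and 20.5 CPM. With mixed cells left out these pericyte levels were 19.6 and 69.2 CPM for *Col4a3* and 22.4 and 34.6 CPM for *Col4a4*. *Col4a3* was 3.60 and 3.65 CPM in endothelial-like cells. *Col4a5* and *Col4a6*, the X-linked chains that form a trimer of smooth muscle and epithelium, were highest in fibroblast-like cells, *Col4a5* at 257 and 263 CPM and *Col4a6* at 99.2 and 263 CPM. In smooth muscle-like cells *Col4a5* reached 110.1 and 91.2 and *Col4a6* 16.8 and 13.8 CPM. Astrocyte-like cells carried *Col4a5* at 11.8 and 15.6 CPM.

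Where 2 chains of a head-to-head pair were both counted, their ratio was compared between classes. The ratio of *Col4a1* to *Col4a2* UMIs was 1.59 and 1.67 in endothelial-like cells, with exact 95% intervals of 1.49 to 1.70 and 1.55 to 1.81, and 1.62 and 1.64 in mural-like cells. In neuron-like cells it was 0.688 (0.428 to 1.09) and 0.485 (0.249 to 0.906), so that *Col4a2* outnumbered *Col4a1* there, and neither library's interval reached that of the endothelial-like cells. Oligodendrocyte-like cells lay on the other side, at 2.55 (1.77 to 3.73) and 3.55 (2.14 to 6.16), from 107 and 71 UMIs of *Col4a1*. In fibroblast-like cells the ratio was 1.87 and 2.54. *Col4a6* stood to *Col4a5* as 0.15 and 0.15 in smooth muscle-like cells and as 0.39 and 1.00 in fibroblast-like cells. Intervals here and below cover counting error only.

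**Figure D2:**
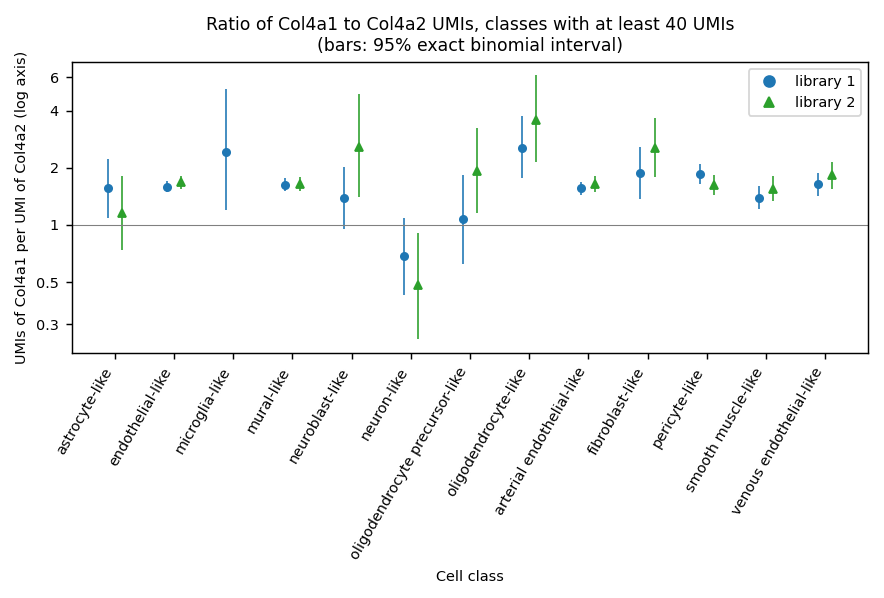
Ratio of *Col4a1* to *Col4a2* UMIs on a log axis for each class with at least 40 UMIs of the pair, by library, with 95% exact binomial intervals. Endothelial-like and mural-like cells sit between 1.59 and 1.67 in both libraries and neuron-like cells below 1, at 0.688 and 0.485, while oligodendrocyte-like cells lie above, at 2.55 and 3.55.

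The laminin chains were divided among vessel cells by subunit. Of the alpha chains, which set the receptor binding, *Lama5* and *Lama4* are the known chains of endothelial basement membrane. *Lama5* was highest in smooth muscle-like cells, 184 and 196 CPM, followed by endothelial-like cells with 60.7 and 61.2 CPM and pericyte-like cells with 29.7 and 30.1 CPM, and had no UMI in fibroblast-like cells of either library, which at their depth allows up to 17.5 and 25.4 CPM. *Lama4* was highest in pericyte-like cells, 124 and 179 CPM, and 37.2 and 81.0 CPM in endothelial-like cells. *Lama2*, the chain lost in congenital muscular dystrophy, was 181 and 177 CPM in pericyte-like, 140.1 and 169.6 in fibroblast-like and only 30.6 and 15.5 CPM in smooth muscle-like cells. These orders held in both libraries. Outside the vessel *Lama2* was 51.7 and 63.0 CPM in astrocyte-like and 21.3 and 21.3 CPM in oligodendrocyte-like cells.

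*Lama1*, an alpha chain of embryonic and meningeal basement membrane, was found chiefly in fibroblast-like cells, at 239 and 356 CPM, and they held 87.2% and 100% of the UMIs of *Lama1* in the mural-like class. *Lama3*, the alpha chain best known from skin, was highest in an arterial-like endothelial class of 368 and 323 cells at 16.9 and 11.7 CPM, drawn at a resolution at which no capillary-like class was named (the narrower arterial-like class of the finer vessel clustering is described below), with 13.5 and 8.91 CPM over all endothelial-like cells and 5.99 and 8.73 CPM in astrocyte-like cells. Of the beta chains, *Lamb2* was 532 and 484 CPM in smooth muscle-like, 263 and 322 in fibroblast-like, 255 and 251 in pericyte-like and 186 and 213 CPM in endothelial-like cells. *Lamb1* was 134 and 221 CPM in fibroblast-like and 92.7 and 98.6 CPM in pericyte-like cells, and 27.8 and 24.1 CPM in neuron-like cells. Astrocyte-like cells carried *Lamb2* at 34.6 and 37.0 CPM. Of the gamma chains, *Lamc1*, part of nearly all laminins, was 453 and 505 CPM in pericyte-like, 350.1 and 611 in fibroblast-like, 174 and 232 in smooth muscle-like and 79.6 and 88.7 CPM in endothelial-like cells. *Lamc1* was also 63.3 and 50.5 CPM in oligodendrocyte precursor-like cells. *Lamc3* was 187 and 246 CPM in fibroblast-like and 155 and 155 CPM in pericyte-like cells, against 47.4 and 18.9 CPM in smooth muscle-like cells.

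A 3′ UMI count is per molecule and not scaled by transcript length, so chains were set against each other within a class as shares of UMIs. Whether the genes were captured and mapped equally well was not measured. In smooth muscle-like cells *Lama5* was 120 of 171 and 114 of 158 alpha chain UMIs. In pericyte-like cells *Lama2* made up 53.3% and 44.9% and *Lama4* 36.5% and 45.6% of alpha chain UMIs. In endothelial-like cells *Lama5* made up 52.6% and 39.8% and *Lama4* 32.3% and 52.8%, so that the leading alpha chain differed between the libraries. Fibroblast-like cells were led by *Lama1*, with 53.2% and 55.3%, and astrocyte-like cells by *Lama2*, with 83.2% and 79.2%. *Lamb2* was 97.3% and 97.9% of beta chain UMIs in endothelial-like cells and 73.0% and 71.8% in pericyte-like cells, while in neuron-like cells *Lamb1* held 73.9% and 84.4%. These are shares of counted UMIs, and which chains assemble into trimers was not measured.

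The pericyte-like levels differed with and without mixed cells. Of the 107 and 99 pericyte-like cells, 24.3% and 34.3% carried endothelial markers, which summed to 9185 and 10189 CPM in the class and to 226 and 142 CPM without those cells. Without them the pericyte level of *Lamc1* was 612 and 768, of *Lama2* 266 and 296, of *Lamc3* 252 and 273 and of *Lama4* 185 and 292 CPM, each higher than with them. The level of *Lama5* was lower without them, 5.59 and 19.2 CPM. A finer clustering of all cells gave a pericyte-like class of 186 and 131 cells with 386 and 426 CPM of endothelial markers, in which *Lamc1* was 644 and 787 and *Lama2* 297 and 319 CPM, *Lamc3* 252 and 282, *Lama4* 179 and 277 and *Lamb1* 128 and 175 CPM. In it the collagens *Col4a1* (1028 and 1132 CPM), *Col4a2* (551 and 692 CPM), *Col4a3* (25.6 and 50.8 CPM), *Col4a4* (23.6 and 39.5 CPM) and *Col5a3* (35.4 and 62.1 CPM) were at their highest of any named class by the mean of both libraries. The vessel subclasses leave out 538 cells of a cluster led by *Mag* and 167 of one led by *C1qa*. Both stayed unnamed at the resolution of these subclasses, with 875.5 and 1229 UMIs at the median, respectively. The *Mag* cluster carried 14553 and 21689 CPM of endothelial and 1573 and 1275 CPM of mural markers. The *C1qa* cluster carried 6683 and 8506 CPM of endothelial and 17786 and 16004 CPM of mural markers. It held *Lama2* at 261 and 243 CPM. At the resolution with a capillary-like class, a further cluster of 150 cells was named pericyte-like, with 1176.5 UMIs at the median. Clusters led by *Pcp4* (394 cells), *Gad2* (96), *Hbb-bt* (46) and *Cx3cr1* (17) stayed unnamed there.

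**Figure D3:**
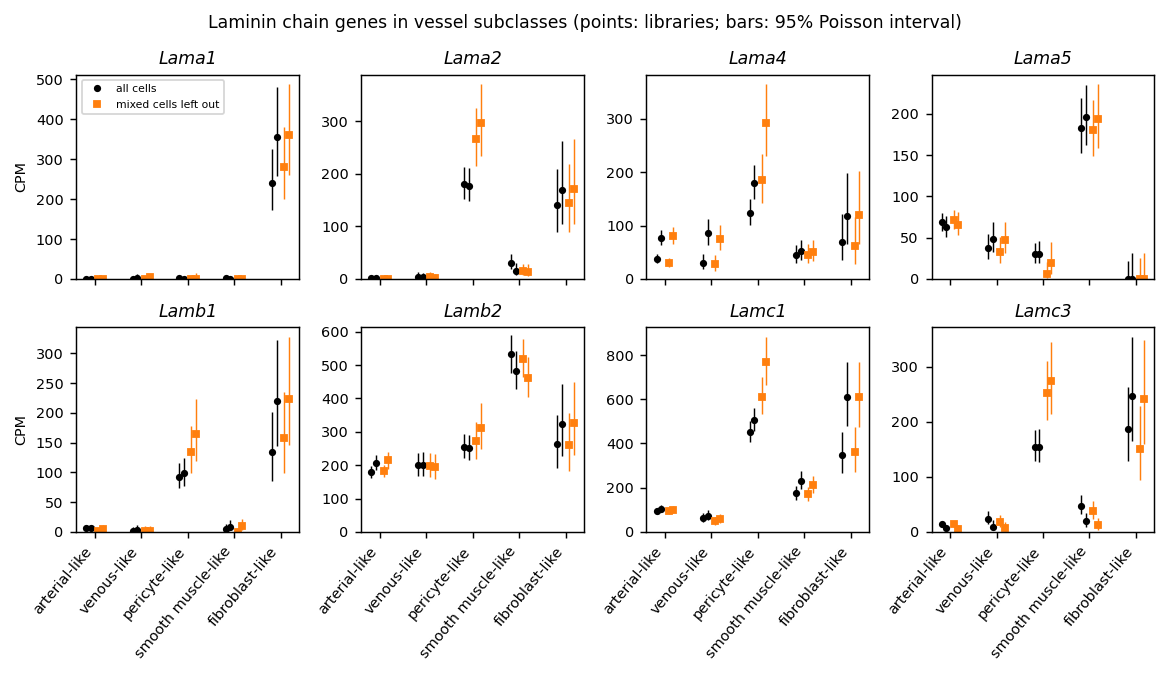
Levels of 8 laminin genes in CPM in the vessel subclasses, 1 point per library with its 95% exact Poisson interval, for all cells (black) and with mixed cells left out (orange). *Lama5* peaks in smooth muscle-like cells at 184 and 196 CPM. *Lama2*, *Lama4* and *Lamc1* are higher in pericyte-like than in smooth muscle-like cells, and their pericyte-like levels are higher in the orange points. In 1 library the black point of *Lamc1* is higher in fibroblast-like than in pericyte-like cells.

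The type I and type III fibrillar chains were at their highest level in fibroblast-like cells. Of the chains of type I collagen, *Col1a1* was 1401 and 1841 CPM and *Col1a2* 1879 and 1832 CPM there, and *Col3a1*, the type III chain of elastic tissues, was 630.2 and 662 CPM. *Col1a2* and *Col3a1* were also counted in the other mural subclasses, where *Col1a2* was 229 and 267 CPM in smooth muscle-like and 148 and 173 CPM in pericyte-like cells, and *Col3a1* was 65.8 and 149.7 CPM in smooth muscle-like and 60.6 and 68.5 CPM in pericyte-like cells. *Col1a1* had no UMI in pericyte-like cells, which allows up to 3.71 and 4.11 CPM. Fibroblast-like cells held 96.8% and 88.6% of the mural-like UMIs of *Col1a1*, but 50.8% and 40.6% of those of *Col1a2* and 50.2% and 34.1% of those of *Col3a1*. Astrocyte-like cells had low levels of both type I chains, 13.5 and 16.5 CPM of *Col1a1* and 21.5 and 17.9 CPM of *Col1a2*.

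Type V chains, which nucleate type I fibrils, differed from each other. *Col5a1* was 64.2 and 33.9 CPM and *Col5a2* 117 and 187 CPM in fibroblast-like cells, whereas *Col5a3* was highest in pericyte-like cells at 24.7 and 54.8 CPM. Type XI chains, cartilage collagens that also occur in neural cells, were mainly outside the vessel. *Col11a1* was 55.5 and 56.7 CPM in oligodendrocyte precursor-like, 40.1 and 52.6 in neuron-like and 18.5 and 20.2 CPM in neuroblast-like cells, and *Col11a2* was 65.5 and 66.2 CPM in astrocyte-like and 49.7 and 55.9 CPM in precursor-like cells. *Col27a1*, a fibrillar chain of cartilage, was highest in microglia-like cells at 145 and 187 CPM, with 35.9 and 65.8 CPM in pericyte-like cells.

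Type VI chains assemble from the products of *Col6a1*, *Col6a2* and a longer chain such as that of *Col6a3*. In fibroblast-like cells all 3 were present, *Col6a1* at 344 and 221, *Col6a2* at 204 and 110.3 and *Col6a3* at 11.7 and 67.9 CPM. In neuron-like cells *Col6a1* was 101 and 78.5 CPM, but its partner *Col6a2* was 7.36 and 7.14 CPM. *Col6a3* was also found in microglia-like cells, 10.7 and 9.30 CPM. *Col6a5* reached 10 CPM only in ependymal-like cells of the finer clustering, 33.3 and 3.67 CPM, from 4 and 1 cells.

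The genes of collagens that release anti-angiogenic fragments, *Col15a1* and *Col18a1*, were spread differently over the classes. *Col15a1* was 210.1 and 543 CPM in fibroblast-like and 27.9 and 28.1 CPM in microglia-like cells. It had only 3 UMIs in endothelial-like cells, none in pericyte-like cells and 6 in smooth muscle-like cells, over both libraries. In the whole mural-like class it was 23.6 and 42.6 CPM, which in library 1 is under the level of microglia-like cells. *Col18a1* was 237 and 262 CPM in smooth muscle-like and 222 and 169.6 CPM in fibroblast-like cells, 44.5 and 20.8 CPM in oligodendrocyte precursor-like and 20.1 and 12.6 CPM in endothelial-like cells. The network-forming *Col8a1* was highest in smooth muscle-like cells, 38.2 and 151 CPM, the libraries differing beyond their counting intervals. *Col8a2* was 75.9 and 8.48 CPM in fibroblast-like cells, on 4 and 1 cells, and 22.2 and 20.2 CPM in ependymal-like cells, so that the order of these classes differed between the libraries.

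Among the FACIT collagens, which decorate fibres, *Col12a1* was 373 and 526 CPM, *Col16a1* 105 and 102 CPM and *Col22a1* 70.0 and 25.4 CPM in fibroblast-like cells. *Col14a1* was 42.8 and 37.9 CPM in smooth muscle-like, 64.2 and 0 in fibroblast-like and 15.3 and 23.1 CPM in endothelial-like cells, the order differing between the libraries. *Col9a2* reached 140.1 and 0 CPM in fibroblast-like cells, on 4 cells of library 1, and had 38 and 36 UMIs in oligodendrocyte precursor-like cells. Of the membrane-spanning chains, *Col13a1* was 123 and 279.9 CPM and *Col23a1* 17.5 and 102 CPM in fibroblast-like cells, and *Col25a1*, whose product binds amyloid, was 34.3 and 98.1 CPM in neuron-like cells. The remaining chains were *Col7a1*, the anchoring fibril collagen, at 46.7 and 17.0 CPM and *Col26a1* at 52.5 and 93.3 CPM in fibroblast-like cells, and *Col28a1*, known from Schwann cell basement membrane, at 6.18 and 9.59 CPM in pericyte-like cells and 9.84 and 11.3 CPM in the pericyte-like class of the finer clustering.

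Glia and neurons carried few collagens at high level. In oligodendrocyte precursor-like cells the leading one was *Col9a3*, a type IX FACIT chain, at 185 and 168 CPM. Oligodendrocyte-like cells had 128 and 108 CPM of it and neuroblast-like cells 26.5 and 28.4 CPM. Within the finer clustering, 80.5% and 73.0% of the oligodendrocyte-like UMIs of *Col9a3* lay in an unnamed cluster led by *9630013A20Rik*, with *Bmp4*, *Fyn* and *Gpr17* among its leading genes, which held 11.9% and 10.8% of the cells. The level of *Col9a3* was 603 and 561 CPM in that cluster and 31.2 and 34.9 CPM in the other oligodendrocyte-like cells. Precursor-like cells also had *Col16a1* at 26.7 and 21.7 and *Col26a1* at 22.0 and 20.4 CPM, and astrocyte-like cells *Col16a1* at 21.3 and 18.2 CPM. The libraries differed in neuron-like *Col25a1* and microglia-like *Col27a1* beyond their counting intervals, by 2.86-fold and 1.29-fold.

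**Figure D4:**
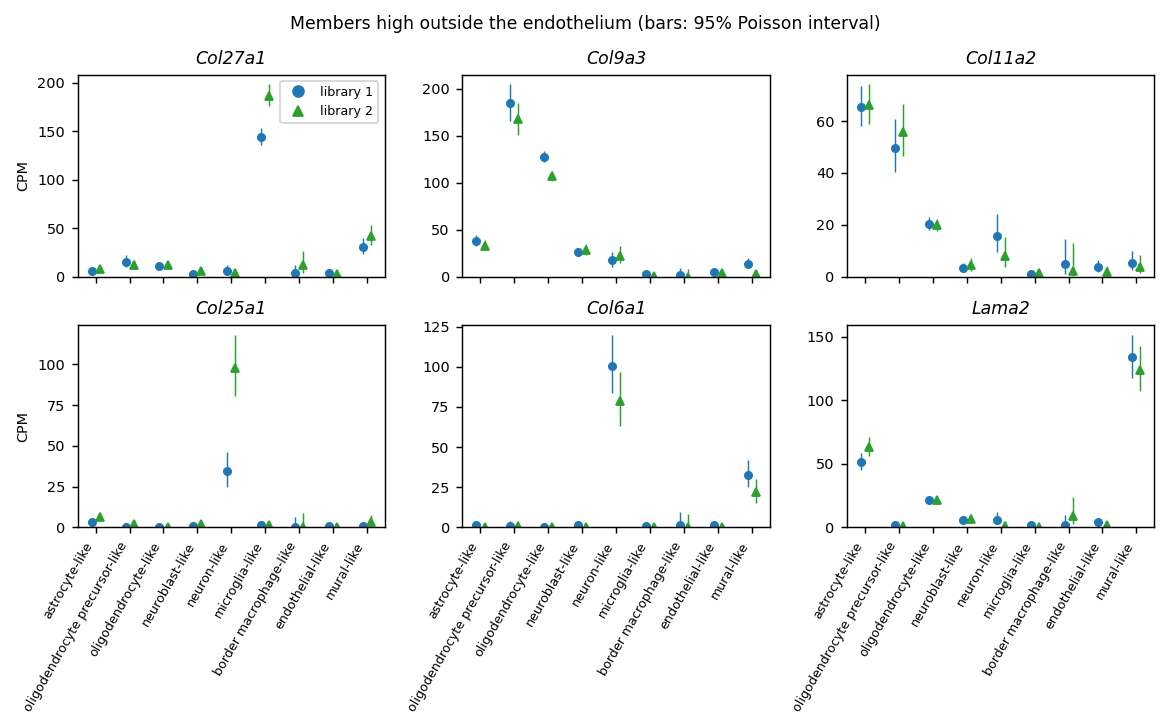
Levels in CPM of *Col27a1*, *Col9a3*, *Col11a2*, *Col25a1*, *Col6a1* and *Lama2* in 9 broad cell classes, 1 point per library with its 95% exact Poisson interval. *Col27a1* is highest in microglia-like cells (145 and 187 CPM), *Col9a3* in oligodendrocyte precursors and then oligodendrocytes, and *Col6a1* and *Col25a1* show neuron-like cells among their highest classes.

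Shares of cells with a UMI were set side by side after thinning each cell to 1000 UMIs, for a class with a high level and for a class with a low one, where free RNA in droplets can also leave UMIs. *Col4a1* was then seen in 49.3 and 46.8% of endothelial-like cells and in 0.589 and 0.31% of microglia-like cells (70.9 and 76.0% and 2.33 and 1.17% without thinning), whose median depths were 2685 and 3255.5 UMIs and 6929 and 5502 UMIs. *Col27a1* was seen in 12.5 and 17.1% of microglia-like cells, with exact 95% intervals of 10.5 to 14.6 and 14.8 to 19.7, and in 0.659 and 0% of endothelial-like cells, where the 0 allows up to 0.758% by the exact interval (49.3 and 52.9% and 0.874 and 0.667% without thinning). *Col9a3* was seen in 18.8 and 14.7% of precursor-like and 0.393 and 0.206% of microglia-like cells (58.7 and 55.6% and 1.70 and 0.585% without thinning). The classes were chosen by their levels, so these shares are a description, and the amount of free RNA was not measured.

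Which classes stood apart was tested with edgeR's quasi-likelihood test on UMIs summed per library and class, each class against the mean of the other classes, with Benjamini-Hochberg adjustment over 15290 genes and a threshold of 0.05. Of the 55 genes 45 had enough counts to be tested, and 44 of the 45, all but *Lamb3*, were higher in at least 1 class. This is not particular to them, since 97.9% of all genes tested were, a background that includes the genes which defined the classes.

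The mural-like class was higher for 37 of 45 genes (82.2%), against 23.2% of all genes. A gene could pass the filter on low genes by its mural-like counts alone, and could then hardly be called lower there. Such genes are among the 45, and the filter was the same for the background. *Col12a1* averaged 40.4 CPM in mural-like cells against 1.23 CPM in the next class, and *Col13a1* 25.3 against 0.266 CPM. Endothelial-like cells were higher for 13 (28.9%), a share near the 26.6% of all genes. The 13 were led by *Col4a2* (5.41 ± 0.13 on the log2 scale, SE), *Col4a1* (5.31 ± 0.13), *Lama4* (4.27 ± 0.17), *Lama5* (4.24 ± 0.26) and *Lamb2* (4.09 ± 0.17). The medians over the tested genes were 3.98 in mural-like and −0.95 in endothelial-like cells, against −0.12 and −0.10 over all genes. In these fits a log2 difference compares the levels of a class with those of the other classes. The SE, derived from the test statistic, is over 2 libraries.

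Glial classes were higher for fewer genes than the mural-like class. Astrocyte-like cells were higher for 14, against 26.6%, among them *Col11a2* (3.17 ± 0.15), *Lama2* (3.05 ± 0.20), *Col4a5* (2.82 ± 0.26) and *Lama3* (2.61 ± 0.31), and both type I chains, *Col1a1* (2.57 ± 0.26) and *Col1a2* (1.87 ± 0.26). Oligodendrocyte precursor-like cells were higher for 11, against 25.8%, led by *Col11a1* (3.73 ± 0.18), *Col26a1* (3.55 ± 0.28) and *Col9a3* (3.47 ± 0.17). Oligodendrocyte-like cells were also higher for 11, against 34.8%, led by *Col9a3* (3.71 ± 0.15), *Col9a1* (3.34 ± 0.31) and *Lama2* (1.96 ± 0.20). As shares of the 45 tested genes these were 31.1%, 24.4% and 24.4%. The backgrounds depended on edgeR's scaling between sums. With library sizes alone, 3193 in place of 5321 of all genes were higher in oligodendrocyte-like and 3279 in place of 5214 in microglia-like cells. In precursor-like cells 6885 were higher in place of 3949.

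Neuron-like cells were higher for 10 of 45 (22.2%), a share near the 26.5% of all genes. The 10 were led by *Col6a1* (5.39 ± 0.27), *Col25a1* (5.10 ± 0.31), *Col11a1* (3.49 ± 0.21) and *Lamb1* (2.96 ± 0.25). Neuroblast-like cells, a class with cell-cycle genes among its leading genes, were higher for 5, against 31.9%, with *Col5a2* (2.55 ± 0.27) and *Col11a1* (2.31 ± 0.19) at the top. Microglia-like cells, the resident immune cells, were higher for 3, against 34.1%, namely *Col27a1* (4.72 ± 0.12), *Col15a1* (4.30 ± 0.35) and *Col6a3* (3.63 ± 0.33). Border macrophage-like cells, the macrophages of perivascular and meningeal spaces, were higher for *Col14a1* (2.01 ± 0.57) alone, against 17.9%. In the immune classes the share of collagen and laminin genes called higher was thus under the background.

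Mural-like cells were then compared with endothelial-like cells, the other cells that lay down the vascular basement membrane. Mural-like cells were higher for 32 of 45 genes (71.1%), against 12.1% of all genes, and lower for none, against 14.8%, by edgeR. The filter on low genes looked at all classes of the fit, for these genes and the background alike. A gene with no endothelial UMI could thus be tested on its counts elsewhere, but could not be called lower. At an unadjusted p under 0.05, 33 passed in either direction. The median over the 45 was 3.16 on the log2 scale, against −0.13 over all genes tested. DESeq2 called 29 higher and none lower, and did not call *Col13a1* (adjusted p = 0.286), *Col28a1* (adjusted p = 0.56) and *Lamb2* (adjusted p = 0.141). With library sizes alone in place of TMM (edgeR's scaling between sums), the median of all genes was −0.01 and the calls over all genes were 2122 higher and 1689 lower in place of 1854 and 2264, and the 32 genes kept their calls.

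The type I and type III chains showed the largest fitted differences in that comparison. *Col1a1* was 133 and 156 CPM in mural-like and 0.601 and 0.405 CPM in endothelial-like cells, from 493 and 3 UMIs over both libraries, a ratio of 277 with an exact 95% interval of 94.3 to 1348 (7.02 ± 0.43 on the log2 scale, adjusted p = 3.05e-09). *Col1a2* (6.69 ± 0.39, adjusted p = 1.91e-09) and *Col3a1* (6.27 ± 0.36) followed. *Col4a5* (6.26 ± 0.48) and *Col4a6* were higher, the latter at least 39.3-fold since it had no endothelial UMI, taking 3 UMIs over both libraries as the floor. By the same floor *Col12a1* was at least 77.6-fold, *Col6a2* at least 48.3-fold and *Col13a1* at least 47.8-fold higher. The 17 other collagens called higher ranged from *Col4a3* (1.82 ± 0.48) to *Col8a1* (5.11 ± 0.51), with *Col15a1* (4.87 ± 0.77), *Col6a1* (4.28 ± 0.55), *Col5a1* (4.03 ± 0.72), *Col18a1* (2.60 ± 0.31) and *Col27a1* (3.27 ± 0.30) among them.

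Among laminins *Lama2* (5.12 ± 0.37, adjusted p = 2.04e-08), *Lama1* (4.85 ± 0.65), *Lamb1* (3.61 ± 0.30), *Lamc3* (3.13 ± 0.30) and *Lamc1* (2.08 ± 0.20) were higher in mural-like cells, and *Lama4* (0.82 ± 0.19, adjusted p = 0.0044) and *Lamb2* (0.70 ± 0.23, adjusted p = 0.031) by less. Without the library as a block edgeR called neither *Lama4* (adjusted p = 0.069) nor *Lamb2* (adjusted p = 0.0864). Of the leading endothelial chains, *Col4a1*, *Col4a2* and *Lama5* did not pass the test, nor did *Col11a1* (1.05), *Col9a3* (0.80) and *Col11a2* (0.55), the chains led by glia. With mixed cells left out edgeR called *Col9a3* higher in mural-like cells (1.46, adjusted p = 0.0176). *Col4a1* differed by 0.16 ± 0.20 (adjusted p = 0.608), *Col4a2* by 0.16 ± 0.18 (adjusted p = 0.573) and *Lama5* by 0.39 ± 0.31 (adjusted p = 0.398). *Lama3* was the only tested chain with a value under 0, −1.32 ± 0.51 (adjusted p = 0.0713), and it was called lower in mural-like cells when mixed cells were left out (−3.71, adjusted p = 0.00171, on 0 and 1 mural UMIs) and when doublets were kept (−1.35, adjusted p = 0.0461).

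The fibroblast-like cells, 9.71% and 7.88% of the mural-like cells, held much of the signal of some genes. They held 91.4% and 91.2% of the mural-like UMIs of *Col12a1*, 81.8% and 95.5% of those of *Col15a1* and 96.7% and 76.5% of those of *Col6a1*. They held only 7.43% and 8.58% of those of *Col4a1*, 9.60% and 10.3% of those of *Lama2* and none of those of *Col8a1* and *Lama5*. In an alternative chosen after seeing the data, with these cells left out, 27 genes were higher in mural-like cells. *Col15a1* (1.88, adjusted p = 0.236), *Col6a1* (1.41, adjusted p = 0.263) and *Col9a2* (−1.01, adjusted p = 0.34) no longer passed, and *Col12a1* and *Lama1* had too few counts to be tested.

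**Figure D5:**
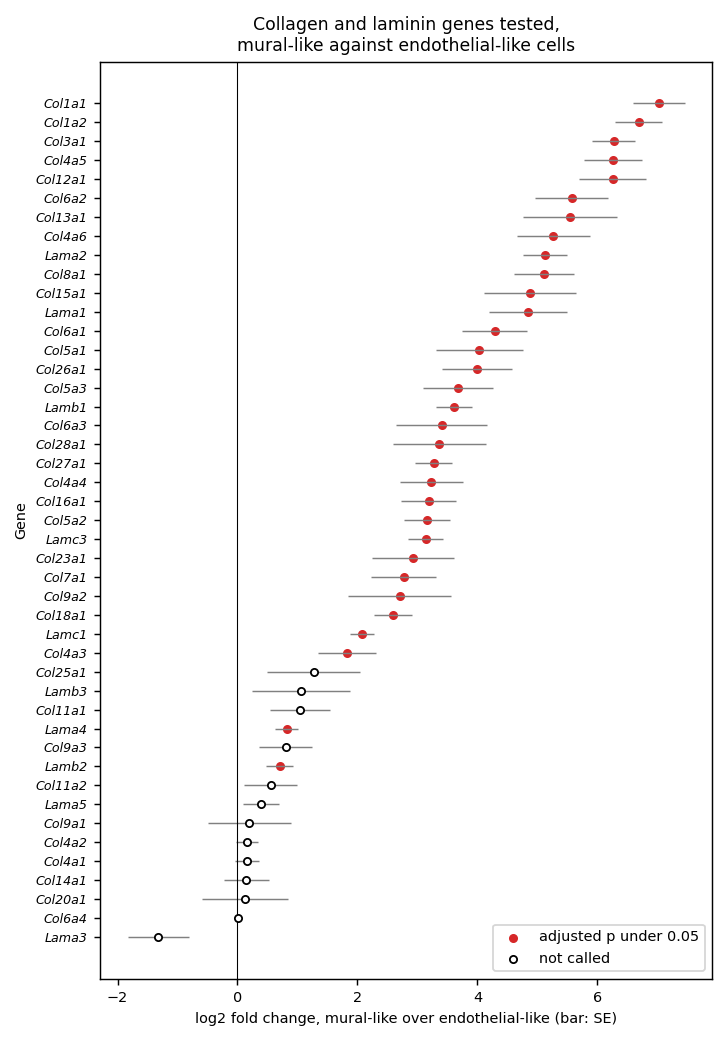
Log2 difference between mural-like and endothelial-like cells for the 45 tested collagen and laminin genes, with its SE, filled red where the edgeR adjusted p was under 0.05 (*Col6a4* has no SE). The 32 red points all lie to the mural side, and *Col4a1*, *Col4a2* and *Lama5* lie near 0.

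Within the mural cells, smooth muscle-like cells (62 and 55) and pericyte-like cells (107 and 99) differed in which chains they carried. Of 32 genes tested, 14 (43.75%) were higher in smooth muscle-like cells, against 13.8% of 9704 genes. A further 6 (18.75%) were lower, a share near the background of 14.8%. The median over the 32 was 0.68 on the log2 scale, against −0.05 over all genes. The endostatin gene *Col18a1* differed most, 237 and 262 CPM against 6.18 and 2.74 CPM (5.45 ± 0.33 on the log2 scale, adjusted p = 5.32e-10). *Lama5* (2.88 ± 0.22, adjusted p = 1.16e-08), *Lamb2* (1.32 ± 0.16), *Col8a1* (2.92 ± 0.32), *Col5a1* (2.91 ± 0.63), *Col4a5* (2.76 ± 0.32), *Col4a6* (2.74 ± 0.62), *Col13a1* (2.70 ± 0.52) and *Col14a1* (2.18 ± 0.48) were also higher. *Col1a1* was 13.7-fold, *Col6a1* 4.15-fold and *Col15a1* 2.49-fold higher by the floor of 3 UMIs. These folds rest on 33, 10 and 6 smooth muscle UMIs and leave out their counting error. Having no pericyte UMI, the genes could not have been called lower. *Col3a1* (0.99 ± 0.25) and *Col1a2* (0.94 ± 0.19) completed the 14.

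The 6 genes lower in smooth muscle-like cells were *Lamb1* (−3.19 ± 0.34, adjusted p = 5.96e-07), *Lama2* (−2.51 ± 0.25, adjusted p = 2.6e-07), *Lamc3* (−1.83 ± 0.30), *Lama4* (−1.29 ± 0.24), *Lamc1* (−0.92 ± 0.18) and *Col5a3* (−2.61 ± 0.49). So 5 of the 6 were laminins. *Col4a1* (0.05 ± 0.17) and *Col4a2* (0.29 ± 0.16) were not called. The split shifted with mixed cells left out, to 10 higher and 11 lower, as *Col15a1*, *Col1a2* (0.26), *Col3a1* (0.35) and *Col6a1* were lost and *Col12a1* (−1.76), *Col26a1* (−1.95), *Col27a1* (−1.68), *Col4a3* (−2.96, adjusted p = 0.00179) and *Col4a4* (−2.78, adjusted p = 0.00679) were called lower. All 6 genes above were still called lower in it, with *Lama2* at −3.74 and *Lamb1* at −4.09. With library sizes alone in place of TMM the split was 13 and 8, and the median of all genes was −0.34 in place of −0.05, with 903 of all genes higher and 2316 lower in place of 1342 and 1433.

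Fibroblast-like cells (30 and 19) were compared with the same pericyte-like cells, which this comparison shares with the one before. Of 32 genes 19 (59.4%) were higher in fibroblast-like cells, against 8.86% of all genes, and 1 (3.1%) was lower, against 10.4%. The filter on low genes looked at all classes of the fit, for these genes and the background alike. A gene with no pericyte UMI could thus be tested on its counts elsewhere, but could not be called lower. The median over the 32 was 2.86 on the log2 scale, against −0.11 over all genes. *Col1a1* was at least 810-fold higher by the floor of 3 UMIs, *Col15a1* at least 177-fold, *Col6a1* at least 151-fold and *Col22a1* at least 26.6-fold. *Lama1* (6.57 ± 0.50, from 83 UMIs against 1), *Col12a1* (6.05 ± 0.33), *Col4a6* (5.80 ± 0.57, from 48 UMIs against 1), *Col18a1* (4.89 ± 0.43) and *Col16a1* (4.26 ± 0.58) were also higher, as were *Col13a1* (5.49 ± 0.48), *Col5a1* (4.10 ± 0.72), *Col6a2* (3.91 ± 0.50), *Col26a1* (3.10 ± 0.65) and *Col23a1* (2.62 ± 0.70). Chains that pericyte-like cells also carried were higher too, *Col4a5* by 3.89 ± 0.35, *Col1a2* by 3.62 ± 0.19, *Col3a1* by 3.39 ± 0.24, *Col5a2* by 2.11 ± 0.36 and *Lamb1* by 0.93 ± 0.27 (adjusted p = 0.0181).

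The gene lower in fibroblast-like cells was *Lama5*, at least 2.88-fold on the floor (fitted −3.60 ± 0.88, adjusted p = 0.00682), and it was not called with mixed cells left out (−2.11, adjusted p = 0.176), where *Col4a3* (−3.67) and *Lama4* (−1.27) were. The endothelial marker level was 9185 and 10189 CPM in the pericyte-like cells. *Lamb1* was not called with DESeq2 or with mixed cells left out, among other settings. *Col5a2* was not called by edgeR with mixed cells left out (1.18, adjusted p = 0.0911). By DESeq2 *Col15a1* (adjusted p = 0.121) and *Col22a1* (adjusted p = 0.32) were not called.

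Few chains were called between endothelial subclasses. At the resolution at which a capillary-like class appeared there were 347 arterial-like, 342 capillary-like and 187 venous-like cells, and 35 of the 55 genes were tested. Many of the 35 had few UMIs in these classes. *Col4a6*, *Col6a2*, *Col12a1*, *Col13a1*, *Col15a1* and *Col22a1* had no UMI in any of them, so they could not have been called. Arterial-like cells were higher than capillary-like cells for 2, against 1.45% of 10011 genes, and lower for 1, against 0.36%, with 7 at an unadjusted p under 0.05. *Col18a1* had 56 and 22 UMIs in arterial-like and 2 and 0 in capillary-like cells, a ratio of 30.3 with an interval of 8.10 to 254 (3.24 ± 0.43 on the log2 scale). *Lama3* was 26.4 and 19.8 CPM in arterial-like, 3.20 and 1.41 in capillary-like and 11.2 and 4.84 CPM in venous-like cells (2.30 ± 0.53 arterial over capillary, adjusted p = 0.0231).

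*Lama4* was the chain lower in arterial-like cells, 23.1 and 58.2 CPM against 56.6 and 101 CPM (−0.95 ± 0.24, adjusted p = 0.0376), and the groups overlapped across libraries. *Lama3* and *Lama4* were not called by DESeq2 or without the library as a block, and with mixed cells left out *Lama4* was not called (−0.87, adjusted p = 0.0873) and *Col14a1* was (1.55, adjusted p = 0.0391). *Col14a1* was 33.0 and 43.9 CPM in arterial-like and 4.27 and 19.7 CPM in capillary-like cells and had no UMI in venous-like cells (1.55 ± 0.43 arterial over capillary, adjusted p = 0.0745). No collagen or laminin gene was called between venous-like and capillary-like cells by edgeR or by DESeq2, with 5 at an unadjusted p under 0.05 by edgeR. The background was 1.06% of all genes higher and 0.639% lower.

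The genes that process, accompany, bind and degrade these chains were followed as 4 lists. The lists were chosen with earlier results of these data known, so their counts are a description. They were counted with all cells only, mixed cells included. *Fbln1*, in the list of other basement membrane genes, was also a marker used to name fibroblast-like cells. In mural-like over endothelial-like cells, 11 of 26 tested genes of collagen processing were higher and none lower, among them *Pcolce*, the procollagen C-proteinase enhancer (6.96), and *Lox*, a collagen cross-linking oxidase (4.10). Of 20 other basement membrane genes 7 were higher and 5 lower, with the netrin *Ntn4* at 4.79, the proteoglycan *Bgn* at 4.25 and the hemicentin *Hmcn1* at −2.51. Of 18 receptor and adaptor genes 11 were higher and 1 lower, with the laminin-binding integrin *Itga7* at 5.35, dystrophin (*Dmd*) at 4.04 and the collagen receptor *Ddr2* at 2.49. Of 16 matrix protease and inhibitor genes 8 were higher and 2 lower, with the membrane protease *Mmp14* at 3.91. The list medians were 0.58, 0.42, 1.38 and 1.19, against −0.13 over all genes, of which 12.1% were higher and 14.8% lower.

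In smooth muscle-like over pericyte-like cells the same lists gave 5 higher and 6 lower of 22, 4 and 7 of 20, 10 and 2 of 15, and 6 and 2 of 12, against 13.8% higher and 14.8% lower of all genes. The list medians were −0.08, −0.11, 1.27 and 0.56, against −0.05 over all genes. *Lox* (4.78) and the integrin ligand *Npnt* (5.44) were higher, and *Hmcn1* (−4.98) and the laminin receptor chain *Itga6* (−3.50) were lower. In fibroblast-like over pericyte-like cells they gave 9 and 1, 7 and 4, 5 and 7, and 7 and 2, against 8.86% and 10.4% of all genes, with medians of 0.38, 0.57, 0.18 and 2.04 against −0.11. The cross-linking oxidase *Loxl1* (5.43), the matricellular gene *Smoc1* (4.52) and the gelatinase *Mmp2* (5.05) were higher, and *Itga6* (−5.13), *Itga7* (−4.79) and *Dmd* (−2.89) were lower. In arterial-like over capillary-like cells no gene of collagen processing and no receptor was called, 5 of the other basement membrane genes were higher and 2 lower, and 2 of the proteases and inhibitors were higher. The elastic fibre genes *Fbln5* (3.91) and *Fbln2* (2.85) were among those higher. In venous-like over capillary-like cells *Hspg2*, the core protein of perlecan, was lower (−0.81), as was the protease *Adamts1* (−1.06), and *Itga3*, a laminin-binding integrin chain, was higher (1.45).

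The 11 genes that stayed under 10 CPM in every named class, with highest class means of 0.446 to 8.03 CPM, included *Col2a1*, *Col6a4*, *Col6a6*, *Col9a1*, *Col10a1*, *Col17a1*, *Col19a1*, *Col20a1*, *Col24a1* and *Lamb3*. Several were still unevenly spread. *Col6a4* was 9.81 and 6.24 CPM in neuron-like cells, *Col20a1* 6.28 and 8.42 CPM in oligodendrocyte precursor-like cells and *Col9a1* 6.16 and 5.39 CPM in oligodendrocyte-like cells. In the oligodendrocyte cluster led by *9630013A20Rik*, *Col9a1* was 20.9 and 19.5 CPM and *Col20a1* 17.7 and 20.9 CPM, which the 10 CPM limit over named classes did not count because the cluster stayed unnamed.

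In the broad classes the 2 libraries gave like levels for most of these genes. Over the 38 genes at 10 CPM or more in a broad class, the median fold between the libraries in the highest class was 1.20, and 30 were within 1.5-fold. For 6 the 95% Poisson intervals did not meet, *Lamc1* (1.18-fold), *Col27a1* (1.29), *Lama4* (1.46), *Col15a1* (1.81), *Col25a1* (2.86) and *Col8a1* (3.67). The vessel subclasses varied more. In the subclass with the highest level the intervals did not meet for *Col1a1* (1.31-fold), *Lamc1* (1.74), *Col5a3* (2.22), *Col13a1* (2.28) and *Col15a1* (2.58). Nor did they for *Col4a6* (2.65), *Col4a3* (2.72), *Col8a1* (3.96), *Col23a1* (5.81) and *Col9a3* (13.8). In 36 of the 38 genes the class with the highest CPM was also the class with the highest share of cells with a UMI, and after thinning in 37. In the annotation 20 of the 55 genes were overlapped by another gene on the same strand and 23 on the other strand, mostly by predicted genes, and reads of genes that overlap on the same strand cannot be told apart here.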

How the data were processed

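The deposited matrices held raw UMI counts per gene and cell barcode, which the authors made from 10x Genomics 3′ libraries with Cell Ranger (4.0 in the submitters' processing notes) on mm10. No column was a normalized value. Barcodes with at least 300 genes were kept, Scrublet doublets (scanpy 1.11.5, 6% expected; 115 and 152 removed) were left out, and cells were integrated over libraries and clustered with Seurat 5.3.0 (30 components, resolution 0.08 for broad classes, 0.32 for the finer clustering, 0.3 for vessel subclasses and 0.6 where a capillary class was needed). The collagen, laminin and listed matrix genes (141) took no part in the clustering. A cluster was named from marker lists when at least 3 markers were raised 2-fold, counting 10 CPM added to each level. The members, marker lists and gene lists were chosen with earlier results of these data known.

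UMIs were summed per library and class (at least 20 cells, 10 for subclasses) and tested with edgeR 4.0.16 (R 4.3.3; quasi-likelihood, TMM, prior count 2, low genes removed by its default filter), with the library as a block because classes of a library come from the same cell suspension. P-values were adjusted by Benjamini-Hochberg over all genes tested, and differences are log2 values ± SE. The SE is the log2 difference divided by the square root of the test's F statistic. The prior count shrinks log2 differences at low counts, where this SE can be narrower than the counting interval. For *Lama1* in fibroblast-like over pericyte-like cells the UMI ratio was 442, with an exact 95% interval of 77.1 to 17646. CPM carry exact Poisson and shares exact binomial 95% intervals (scipy 1.17.1), for counting error only. A gene with no UMI in a class was set to a floor of 3 UMIs over both libraries, and a floor per library was used where a level is quoted as allowed. A fold given as at least a value uses this floor and leaves out the counting error of the higher class. Every gene at 10 CPM or more in a class was named with its values in both libraries, and some other genes are not reported here. Mixed cells were vessel cells with at least 2 UMIs per 1000 from markers of the other vessel class. The fit was also run on simulated counts, in which classes differed only by a set of genes changed in mural-like cells. They held no library effect and no mixed cells, so that run cannot judge the fit under those conditions. Its outcome is not reported here. Alternatives were DESeq2 1.42.0, library sizes without TMM, no block, no filter on low genes, doublets kept, at least 500 genes, under 20% mitochondrial UMIs, mixed cells left out, other resolutions and each library left out.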

Additional observations from a re-analysis of the deposited data

How the results depend on the processing

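Across all alternatives the count of genes higher in at least 1 class ranged from 42 to 54 (44 in the report), that of genes higher in mural-like than in endothelial-like cells from 27 to 34 (32), that of genes differing between smooth muscle-like and pericyte-like cells from 16 to 23 (20), and between fibroblast-like and pericyte-like cells from 17 to 25 (20). Genes lower in mural-like than in endothelial-like cells, 0 in the report, were 1 with doublets kept and 1 with mixed cells left out, *Lama3* both times. Between arterial-like and capillary-like cells the count of 3 became 1 with DESeq2, 1 without the replicate block and 5 with all genes of at least 1 UMI. Between venous-like and capillary-like cells the count of 0 became 1 with all genes of at least 1 UMI (*Col14a1*) and 1 with mixed cells left out (*Lamc1*). Without the replicate block the counts of 44, 32, 20 and 20 were 44, 29, 19 and 20. With fibroblast-like cells left out, chosen after seeing the data, *Col9a2* turned to −1.01 in mural-like over endothelial-like cells. The causes of these changes were not tested. With either library left out no test remained, since no residual degree of freedom was left, and the direction of the called genes was counted instead, which gave 44, 32, 0, 20, 20, 3 and 0, the lowest and the highest alike. These genes had been called from both libraries together, so the outcome was nearly fixed beforehand and adds no support. The counts of 0 had no called gene to compare. Over the genes named for a comparison, 784 values kept their direction and, where a test was run, their call. A further 34 kept the direction and lost the call, and 1 reversed. The 784 include the values with a library left out, for which only the direction was compared. Doublets kept could not be run for venous-like cells. The number of genes at 10 CPM in a broad class was 38 in the report, 39 with mixed cells left out and 38 with doublets kept. Depth limits the fibroblast-like values most, since 30 and 19 cells with 171361 and 117894 UMIs make 3 UMIs equal to 17.5 and 25.4 CPM.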
